A study of Mus musculus with 6 samples.

Results

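The Peg3 domain is a cluster of imprinted genes on proximal chromosome 7 of the mouse, and 4 of its genes, Peg3, Usp29, Zim1 and Zfp264, were followed in RNA-seq counts of WT and Oct6 KO EpiLCs. They were found among the 55416 genes of the count file by matching Ensembl identifiers to GENCODE mouse gene names, and each of the 4 symbols was matched to 1 identifier. The genes were chosen by their known imprinting and with their KO over WT log2 fold change in these same 6 libraries already seen, so that their levels and fold changes are given here as a description and without a test. EpiLCs (epiblast-like cells) are the formative pluripotent cells obtained when naïve mouse embryonic stem cells leave the 2i+LIF medium, and the comparison asks how their transcriptome depends on the transcription factor Oct6. WT EpiLCs came from the parental 46C line, and KO EpiLCs from a single clone of that line with a homozygous insertion of a nucleotide in Oct6 (official symbol Pou3f1), so that clone and genotype cannot be told apart. Both groups were differentiated for 48 h on fibronectin in N2B27 with 1% KSR, bFGF and Activin A, with 3 biological replicates each and 6 libraries in all. The concentrations in the sample labels were 12 ng/ml for bFGF and 20 for Activin A, whereas the series text writes them in µg/ml.

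In an imprinted domain, a gene is transcribed mainly from the chromosome inherited from a given parent, because a control region inherits its DNA methylation from the germ line of a single parent. In the Peg3 domain this control region covers the promoter and the first intron of Peg3, and is methylated on the maternal chromosome. Peg3, a large zinc finger protein, and Usp29, a ubiquitin-specific protease, are known as paternally expressed genes that are transcribed away from each other, while Zim1, another zinc finger gene, is known for maternal expression. Counts per gene do not separate the parental alleles, and methylation was not measured.

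Peg3 (ENSMUSG00000002265.18) occupies bases 6706882 to 6733468 of chromosome 7 (GRCm39) on the minus strand, with 10 separate exon blocks. Usp29 (ENSMUSG00000051527.12, 6733577 to 6970218) starts 109 bp from the Peg3 start on the plus strand and runs over 236.6 kb. Zim1 (ENSMUSG00000002266.18, 6674268 to 6699500, minus strand) starts at −34 kb from the Peg3 start, where minus marks the side towards which Peg3 is transcribed. Zfp264 (ENSMUSG00000109176.2, 6984202 to 6993267, plus strand), annotated as a transcribed unitary pseudogene with 3 exon blocks, starts 250.7 kb from the Peg3 start beyond the end of Usp29. The short stretch from which Peg3 and Usp29 diverge is shown because both genes are transcribed from it. It is chr7:6733439-6733606 of GRCm39, read 5′ to 3′ on the Peg3 strand, and holds the 108 bases between the annotated starts with 30 bases of each gene. Capitals mark the motif TGACGTCA, which factors of the CREB and ATF families recognise, and 2 matches to the CCAAT box, which read ATTGG on this strand.
Peg3-Usp29: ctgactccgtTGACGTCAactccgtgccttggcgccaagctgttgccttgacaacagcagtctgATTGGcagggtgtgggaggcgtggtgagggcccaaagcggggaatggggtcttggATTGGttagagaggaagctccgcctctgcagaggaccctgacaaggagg

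The CCAAT matches lie 15 and 70 bp upstream of the annotated Peg3 start, and the TGACGTCA match lies 121 bp upstream of it. The TGACGTCA match is thus past the annotated Usp29 start and inside that gene, not between the starts. Searched on both strands, TGACGTCA was found in 1.8% of 32534 RefSeq promoters with distinct sequence, windows of 300 bases with 250 before and 50 after the start, and CCAAT in 37.4%. The octamer ATGCAAAT, the classical motif of POU factors such as Oct6, was in 1.75% of these windows and in none of the windows of Peg3, Usp29 and Zim1. RefSeq places the starts of Peg3 and Usp29 164 bp apart, and their promoter windows share 263 bases. The windows of Peg3, Usp29 and Zim1 held 13, 17 and 20 CpG dinucleotides, against a median of 7 over all promoters. These counts were not unusual, since 61.8%, 68.4% and 73.3% of the promoters held fewer. Zfp264 was not analysed in this respect.

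The first intron of Peg3 holds a repeated motif of YY1, a zinc finger factor known to bind there. The motif GCCATNTT was searched on both strands in the first 5 kb inside each of 1557 protein-coding genes of chromosome 7, a window and motif picked because of this known binding. Peg3 had 12 matches, all 12 in the orientation of transcription, between 873 and 3161 bp from its start and inside the first intron, which ends 3895 bp from the start. The median gene had 1 match, and the highest number in any other gene was 5. Usp29 had 1 match and Zim1 had 0. Of the 12 matches 11 read GCCATCTT, and 7 followed directly on the bases gc. The 6 examples below are shown on the Peg3 strand with the match in capitals and 8 bases on either side. Most of them follow gc, so that they look more alike than all 12 do. Some matches left out, such as those at 1723 and 2528 bp, follow ac and ta. The example from 2199 bp is the exception with GCCATTTT.
Peg3 at 873 bp: cagttggcGCCATCTTggagggtg
Peg3 at 979 bp: cgcttggcGCCATCTTgaaatgac
Peg3 at 2011 bp: aatttggcGCCATCTTtgccagca
Peg3 at 2199 bp: ctgaaggtGCCATTTTgattgaca
Peg3 at 3039 bp: cctctggcGCCATCTTtgttggcc
Peg3 at 3161 bp: tcattggcGCCATCTTtgttggcc

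**Figure D1:**
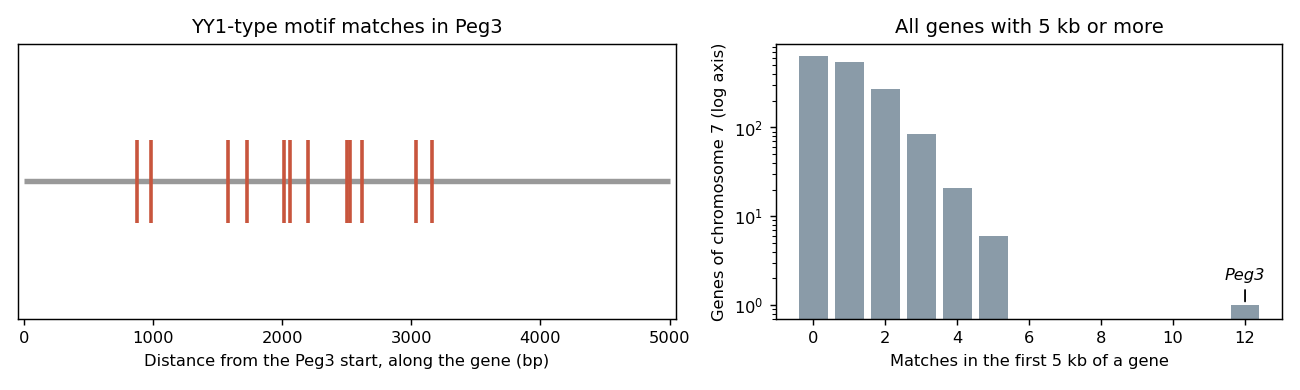
Matches to the YY1-type motif GCCATNTT, with the distance from the Peg3 start in bp on the x axis at left (each vertical line is a match) and, at right, the number of chromosome 7 genes (log axis) by their number of matches in the first 5 kb. The 12 matches in Peg3 lie between 873 and 3161 bp, and no other of the 1557 genes has more than 5.

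The 6 libraries held between 10995505 and 14680930 counts, and levels are given as CPM, counts scaled to library size after TMM normalization in edgeR. Oct6 itself was counted in all libraries, with 1563 to 2156 counts in WT and 1567 to 1825 counts in KO EpiLCs, or 142 ± 19.4 and 132 ± 7.59 CPM (SD, n = 3). Its log2 fold change was −0.10 (adjusted p = 0.574 from edgeR), and counts per gene cannot show whether a transcript carries the insertion. The 8 EpiLC markers Pou5f1, Sox2, Fgf5, Otx2, Dnmt3b, Pou3f1, Utf1 and Lin28a were counted in every library and summed to 3130 to 3490 CPM in WT and 3030 to 3180 CPM in KO libraries, a sum made up mostly of Dnmt3b and Pou5f1. Of the 8, 3 were higher in KO EpiLCs, Otx2 by 0.92, Fgf5 by 0.65 and Sox2 by 0.42 on the log2 scale (adjusted p = 1.7e-04, 3.81e-04 and 0.0283 from edgeR). Of all 15746 genes tested, 11.8% were called higher and 12.5% lower in KO EpiLCs at an adjusted p below 0.1. Markers of other cell types were low, and some moved with genotype. The summed level was 6.11 to 8.06 CPM in WT and 6.17 to 17.6 CPM in KO for 6 primitive endoderm markers, 6.34 to 8.40 and 3.31 to 4.13 CPM for 7 trophoblast markers, 6.02 to 6.57 and 9.03 to 12.1 CPM for 5 mesoderm and streak markers, and 39.0 to 46.3 and 28.9 to 31.4 CPM for 5 neural markers. Tpbpa and Prl3d1 of the trophoblast list had 0 counts in all libraries. For comparison, 16.6% of the genes tested had all KO libraries above all WT libraries. The trophoblast, mesoderm and neural sums did not overlap between the groups, but a single gene made up most of each. These were Krt7 (6.79 CPM in WT and 3.36 CPM in KO on average), Eomes (5.43 and 9.94 CPM) and Tubb3 (32.7 and 21.4 CPM). Krt7, Tubb3 and Sox1 were called lower and Eomes, Gata6 and Pdgfra higher in KO EpiLCs, while T (0.331 and 0.204 CPM) and Mixl1 (0.37 and 0.186 CPM) were too low to be tested. Between 2 and 5 of the trophoblast, 3 and 5 of the mesoderm, 4 and 5 of the neural and 5 and 6 of the primitive endoderm markers had a count in a library. The part of these cells in the values of the Peg3 domain was not tested. In bulk RNA, fewer cells that transcribe a gene and less RNA per cell cannot be told apart.

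Peg3 transcripts were more abundant in KO EpiLCs than in WT EpiLCs. In WT EpiLCs Peg3 stood at 124, 84.8 and 128 CPM (replicates 1 to 3), and in KO EpiLCs at 325, 230 and 287 CPM. The groups did not overlap, the lowest KO library lying well above the highest WT library, and replicate 2 was the lowest library of either group. The WT mean was 112 ± 24 CPM and the KO mean 281 ± 48 CPM (SD, n = 3). The log2 fold change was 1.32 with a standard error of 0.14. Compared within each replicate pair, the KO level was 2.62, 2.71 and 2.24 times the WT level. With 929 to 4010 counts per library, Peg3 ranked 1071 by mean CPM among the 15746 genes tested, and 2944 by mean CPM per kb of annotated exon.

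Usp29 was also higher in KO EpiLCs, at a far lower level than Peg3. Its lowest WT library was replicate 1, where that of Peg3 was replicate 2. Its WT levels (replicates 1 to 3) were 8.06, 8.94 and 10.1 CPM, and its KO levels 19.4, 18.3 and 19.3 CPM. The KO libraries lay close together, and all 3 lay above all WT libraries. The WT mean was 9.03 ± 1.01 CPM and the KO mean 19 ± 0.64 CPM (SD, n = 3). The log2 fold change was 1.07 with a standard error of 0.16, with KO over WT ratios of 2.41, 2.04 and 1.92 within pairs. For every 100 counts on Peg3 there were 6.50, 10.5 and 7.85 counts on Usp29 in WT replicates 1 to 3, and 5.99, 7.96 and 6.73 in KO replicates 1 to 3. These ratios overlapped between the groups, KO replicate 2 lying above WT replicates 1 and 3. Exons of Usp29 overlap 2582 bp of a lncRNA model on the opposite strand, also named Zim3, that the count file does not list, and since the use of the strand in counting is not stated, reads of that transcript cannot be told apart from those of Usp29.

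Zim1 transcripts were rare in both groups. Only 5, 4 and 11 reads were counted on it in the WT libraries (replicates 1 to 3), and 20, 12 and 27 in the KO libraries. In CPM these are 0.373, 0.365 and 0.744 in WT and 1.62, 0.926 and 2.03 in KO libraries, without overlap between the groups but with WT replicate 3 near KO replicate 2. The WT mean was 0.494 ± 0.217 CPM and the KO mean 1.53 ± 0.559 CPM (SD, n = 3), and the log2 fold change was 1.58 with a standard error of 0.48. The filter on low counts asked for about 0.757 CPM in 3 libraries, which 3 KO libraries and 0 WT libraries reached, so that Zim1 entered the fit only through the group in which it was higher. Its log2 fold change was 1.32 without KO replicate 3, and it then no longer belonged to the genes called different.

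Zfp264, the member farthest from Peg3, did not share this pattern. WT libraries (replicates 1 to 3) held 5.90, 4.93 and 6.36 CPM, and KO libraries 6.48, 7.95 and 6.32 CPM. The groups overlapped, KO replicate 3 lying below WT replicate 3, and only KO replicate 2 stood above the rest. The WT mean was 5.73 ± 0.73 CPM and the KO mean 6.92 ± 0.896 CPM (SD, n = 3). The log2 fold change was 0.27 with a standard error of 0.21, and the ratios within pairs were 1.10, 1.61 and 0.994. For every 100 counts on Peg3, Zfp264 had 4.76, 5.81 and 4.96 counts in WT and 2.00, 3.46 and 2.20 counts in KO libraries, without overlap. These ratios fall with the higher Peg3 counts of the KO libraries, and nothing further about Zfp264 is read from them. Of its 1563 exonic bases, 1533 also belong to a longer lncRNA model of the same name that the count file does not list.

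**Figure D2:**
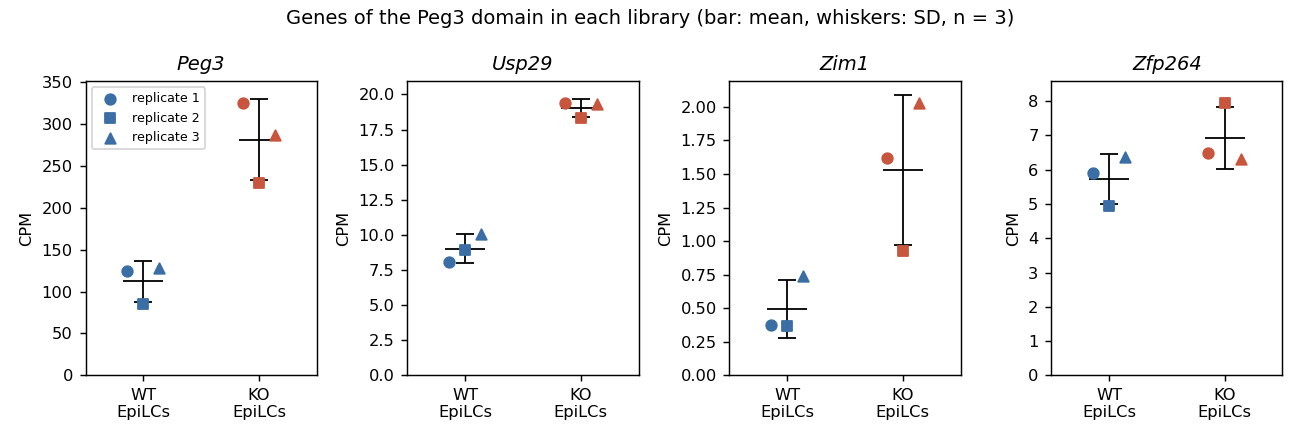
Level of each of the 4 genes in CPM on the y axis, for the 3 WT and 3 KO libraries (symbols mark the replicate number), with the mean as a bar and the SD as whiskers. The KO libraries lie above all WT libraries for Peg3, Usp29 and Zim1 and overlap them for Zfp264.

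Levels of different genes were compared per kb of annotated exon. The WT means were 8.22 CPM per kb for Peg3, 3.66 for Zfp264, 0.499 for Usp29 and 0.0603 for Zim1, and the KO means were 20.5, 4.42, 1.05 and 0.186 CPM per kb. The order Peg3, Zfp264, Usp29, Zim1 was the same in both groups, and within each group no library of a gene overlapped those of its neighbour in this order. Peg3 took between 85.6% and 92.2% of the counts on the 4 genes. The exon lengths, such as 13663 bp for Peg3 and 18078 bp for Usp29, are those of all annotated transcripts of a gene together, and may differ from the release used in counting.

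All 4 genes passed the filter on low counts, and 3 of the 4, Peg3, Usp29 and Zim1, were among the 3833 genes called different at an adjusted p below 0.1 (24.3% of 15746 genes tested, with 11.8% called higher and 12.5% called lower in KO EpiLCs). The libraries of the groups were apart in the same 3 genes, KO above WT, as they were for 16.6% of the genes tested. The same 3 were called higher with a log2 fold change of at least 1, which held for 2.92% of the genes tested. Nothing is read from these counts, since the members were chosen with this comparison known. Chromosome 7 as a whole was not shifted, the median log2 fold change of its 1225 genes tested being 0, as for all genes. Of 293 pairs of protein-coding genes that start within 1 kb of each other and are transcribed away from each other, both genes were called higher in 17 pairs (5.8%), and in 3 pairs both also had a log2 fold change of at least 1. These were Peg3 with Usp29, Amdhd1 with Ccdc38, and Fam236f with Dmrtc1b, the latter pairs being named after their values were seen. Peg3 and Usp29 were chosen with their fold changes known, so nothing is read from their place among the pairs.

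The genes around the domain differed in both directions. Within 500 kb of the span from Zim1 to Zfp264 the file lists 61 other genes, among them olfactory and vomeronasal receptor genes, of which 31 had a count and 15 were tested. At an adjusted p below 0.1 from edgeR's quasi-likelihood test, 6 of the 15 differed, 4 higher and 2 lower in KO EpiLCs, against 24.3% of all genes, and their median log2 fold change was 0.32, against 0 for all genes. The nearest tested gene on the Zim1 side, Zim2, a lncRNA gene of the same domain at −68.1 kb from the Peg3 start, did not pass. Its mean was 1.45 ± 0.366 CPM in WT and 1.06 ± 0.261 CPM in KO (SD, n = 3), and its log2 fold change −0.46 with a standard error of 0.40 (adjusted p = 0.486 from edgeR). Zim3 was not tested, with 3 to 16 counts per library. The nearest on the other side was Aurkc, an Aurora kinase known from meiosis, which starts 264.8 kb from the Peg3 start. Aurkc was lower in KO EpiLCs, with 3.36, 4.11 and 3.38 CPM in the WT libraries (replicates 1 to 3) against 1.22, 2.01 and 2.41 CPM in the KO libraries. The log2 fold change was −0.93 with a standard error of 0.31 (adjusted p = 0.0398 from edgeR). It no longer passed without WT replicate 2 (adjusted p = 0.124) or without KO replicate 1 (adjusted p = 0.165).

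The 4 neighbours that were higher start between −508.2 and −347.3 kb from the Peg3 start, and a group of olfactory receptor genes lies between them and Zim2. Zscan5b, a zinc finger gene at −508.2 kb, stood at 0.746, 0.821 and 1.42 CPM in the WT libraries (replicates 1 to 3) and at 2.67, 4.78 and 4.74 CPM in the KO libraries. All its KO libraries lay above all WT libraries, and the log2 fold change was 2.00 with a standard error of 0.36 (adjusted p = 5.3e-04 from edgeR). Eddm13 rose from 2.10 ± 0.643 to 4.89 ± 0.89 CPM (SD, n = 3), or by 1.21 on the log2 scale (adjusted p = 0.00523 from edgeR). The zinc finger genes Zfp78 and Zfp28 had log2 fold changes of 0.81 and 0.55 (adjusted p = 0.0537 and 0.0198 from edgeR). At the other end, Clcn4, which encodes a chloride/proton exchanger, fell from 15.9 ± 0.957 to 11.1 ± 2.87 CPM (SD, n = 3), with a log2 value of −0.52 (adjusted p = 0.0494 from edgeR). Zfp78 was no longer called without WT replicate 2, WT replicate 3 or KO replicate 3 (adjusted p = 0.209, 0.177 and 0.238), nor Clcn4 without WT replicate 2, WT replicate 3 or KO replicate 2 (adjusted p = 0.103, 0.121 and 0.246). The count of 6 neighbours was 4 without WT replicate 2 and 4 without WT replicate 3.

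**Figure D3:**
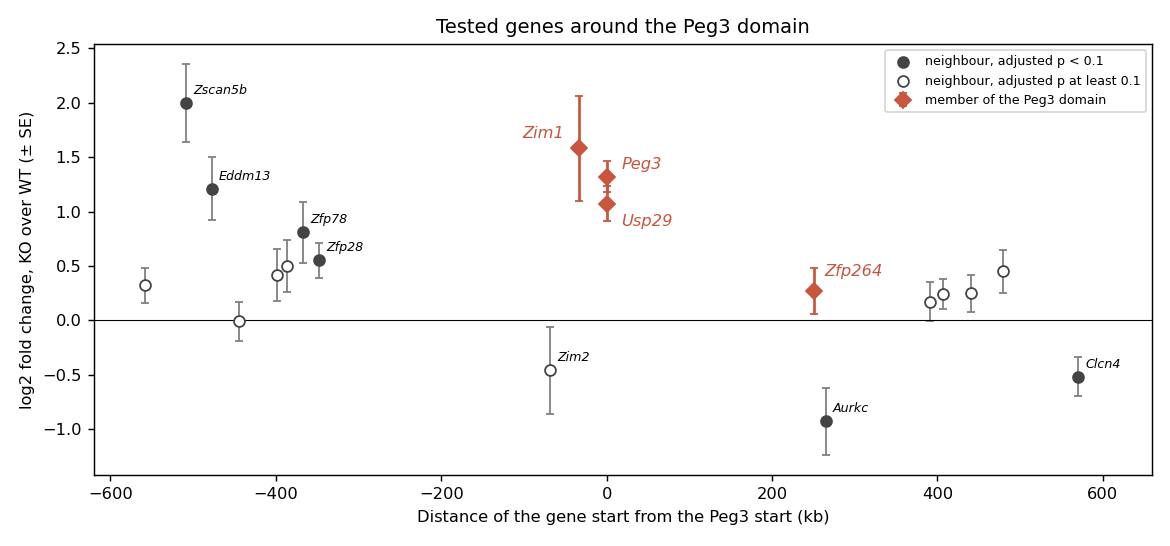
Log2 fold change of KO over WT (y axis, with its standard error as whiskers) against the distance of each gene's start from the Peg3 start in kb (x axis), for the 4 genes (diamonds) and the 15 tested neighbours (circles, filled at an adjusted p below 0.1). Peg3, Usp29 and Zim1 lie between 1.07 and 1.58, with Zim2 at −0.46 on one side and Zfp264 at 0.27 and Aurkc at −0.93 on the other.

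Factors that maintain, write or remove methylation at imprinted control regions had log2 fold changes between −0.34 and 0.54. Of 23 genes in this list, 22 were tested, Yy2 having 0 counts, and 6 differed, 5 higher and 1 lower in KO EpiLCs, or 27.3% against 24.3% of all genes, with a median log2 fold change of 0.13 against 0. Zfp42 (REX1), a zinc finger factor related to YY1, rose from 122 ± 1.04 to 177 ± 22.6 CPM (SD, n = 3), or by 0.54 on the log2 scale (adjusted p = 9.02e-04 from edgeR). The paper states that Rex1 did not differ between these groups, and its RNA-seq list asked for a log2 fold change of at least 1. Tet1, which oxidises methylcytosine, had a log2 fold change of 0.42, and Hells, a chromatin remodeller needed for DNA methylation, one of 0.40 (standard errors of 0.12, adjusted p = 0.0168 and 0.0251 from edgeR). Arid4a rose by 0.33 (adjusted p = 0.0975), the maintenance methyltransferase Dnmt1 by 0.23 (adjusted p = 0.0945), and Tet3, on chromosome 6, fell by 0.34 on the log2 scale (adjusted p = 0.0858). The median log2 fold change of the 773 genes tested on chromosome 6 was −0.40. Of the 13 alternative settings, 9 lost the call of Dnmt1, 8 that of Tet3 and 8 that of Arid4a, and Hells was lost without WT replicate 2 (adjusted p = 0.113).

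Yy1 itself did not pass, its mean being 153 ± 4.96 CPM in WT and 159 ± 13 CPM in KO (SD, n = 3) and its log2 fold change 0.06 (adjusted p = 0.754 from edgeR). ZFP57, ZFP445 and their partner TRIM28 protect methylated imprints after fertilization, and UHRF1 recruits DNMT1. The log2 fold changes were 0.27 for Zfp57 (adjusted p = 0.142), 0.25 for Zfp445 (0.191), 0.20 for Trim28 (0.180) and 0.07 for Uhrf1 (0.657), and none of these passed. With the replicate number as a block in edgeR, Zfp57 (adjusted p = 0.0432), Zfp445 (0.05) and Trim28 (0.0609) passed as well. The list then had 11 genes called, but the block also raised the genes called in all from 3833 to 4764. The list had 3 called when WT replicate 1 or 2, or KO replicate 1 or 2, was left out alone. In these fits the genes called in all fell to between 3058 and 3330.

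PEG3 protein is known to act with SIAH1 and p53 on BAX in apoptosis and with TRAF2 in TNF signalling. Of the 8 genes listed for these partners (Siah1a, Siah1b, Siah2, Traf2, Bax, Trp53, Tnfrsf1a and Trim28), all 8 were tested and 0 passed, against 24.3% of all genes, with 0 also at an unadjusted p below 0.05 in edgeR and 0 by DESeq2. Their log2 fold changes ran from −0.46 (Tnfrsf1a, standard error 0.29) to 0.20 (Trp53 and Trim28, standard errors 0.14 and 0.10). Bax had 95.9 ± 8.82 CPM (SD, n = 3) in WT and 103 ± 3.3 CPM in KO EpiLCs, and Trp53 41.3 ± 8.94 and 47.5 ± 4 CPM. With the replicate block 1 gene passed, Trim28, and without WT replicate 1 also 1, Trp53, with a log2 fold change of 0.39.

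Other imprinted genes changed in both directions. Of 28 genes known for paternal expression outside the Peg3 domain, 20 were tested and 10 differed (50%, against 24.3% of all genes), 5 higher and 5 lower in KO EpiLCs, with a median log2 fold change of 0.08 against 0 for all genes. The lists of imprinted genes were drawn up with earlier results of these data known. Slc38a4, an amino acid transporter, had the largest difference among the 10, from 30.6 ± 4.93 to 178 ± 2.05 CPM (SD, n = 3), or 2.53 on the log2 scale (adjusted p = 1.35e-10 from edgeR). Among these 10 genes Mest (−1.82), Sgce (−1.03) and Nap1l5 (−0.78) followed, all 3 on chromosome 6. The others called lower were Peg10 (−0.41, adjusted p = 0.0565 from edgeR), also on chromosome 6, and Nnat (−0.77), on chromosome 2. Of the 773 genes tested on chromosome 6, 50.6% were called, with a median log2 fold change of −0.40. Mest, Sgce and Nap1l5 lay below that median. Whether their fall belongs to the wider shift of the chromosome was not tested. Nap1l5 no longer passed without WT replicate 3 (adjusted p = 0.112). Of 25 genes known for maternal expression, 20 were tested and 9 differed (45%, against 24.3% of all genes), 2 higher and 7 lower, where 11.8% of all genes were higher and 12.5% lower. The median of the 20 was −0.40, against 0 for all genes. Among these Phlda2 (−1.33), Cdkn1c (−0.82) and Rian (−0.55) were lower and H19 was higher (0.77), although H19 did not pass in DESeq2 (adjusted p = 0.123). Several genes called lower lie close together, Phlda2 and Cdkn1c on chromosome 7 and Meg3, Rian and Mirg on chromosome 12. Ppp1r9a, also called lower, is on chromosome 6. The 45% thus does not count independent genes.

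**Figure D4:**
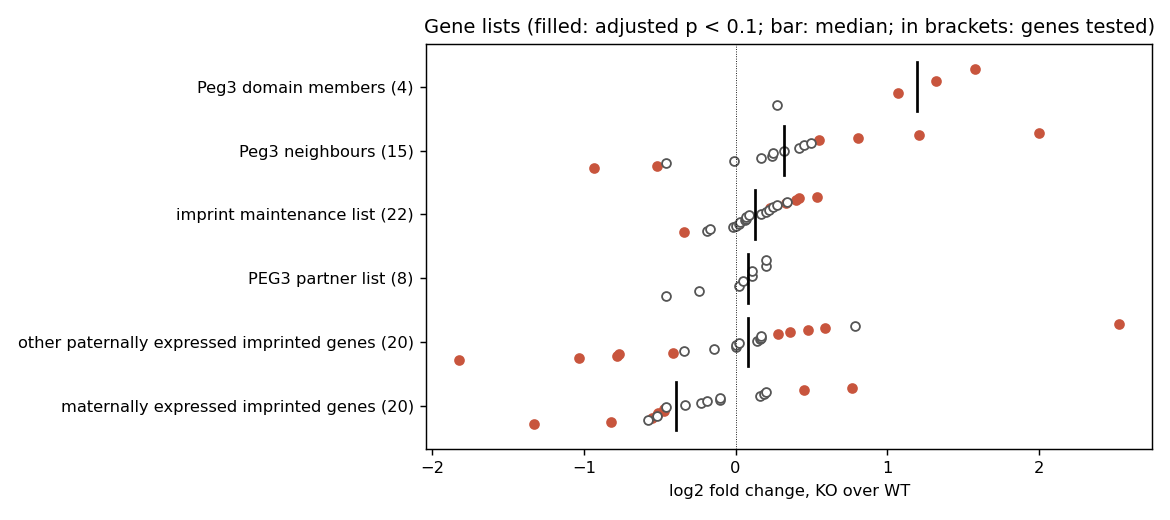
Log2 fold change of KO over WT (x axis) for every tested gene of 6 lists (rows, number tested in brackets), filled at an adjusted p below 0.1, with the median of each list as a bar. The Peg3 domain genes lie between 0.27 and 1.58, while the other imprinted genes spread from −1.82 to 2.53.

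The profile of Peg3 over the 6 libraries was compared with those of 14792 genes with a mean of at least 1 CPM, by the root mean square difference of log2 CPM centred on each gene's mean. The 5 nearest were Apof (0.060, Pearson r = 0.997), Abcb1a (0.129, r = 0.987), Rex2 (0.130, r = 0.983), Zfp936 (0.130, r = 0.993) and Rab30 (0.132, r = 0.983). The points share their libraries and fall into the WT and KO groups, so that r mainly repeats the difference between the groups. Abcb1a, a drug efflux pump of the ABC family, had 17.4 ± 2.99 CPM (SD, n = 3) in WT and 48.3 ± 5.67 CPM in KO EpiLCs, and Zfp936, a zinc finger gene of chromosome 7, 44.6 ± 7.92 and 131 ± 16 CPM. Zfp936 starts at 42763653 and Rab30 at 92390811 of chromosome 7, outside the domain. Apof was low, with 5 to 25 counts per library, and Rex2 and Zfp936 belong to families of similar zinc finger genes, which makes their counts uncertain. By the same measure Usp29 ranked 116 (0.269), Zim1 179 (0.297) and Zfp264 2673 (0.591). The members were chosen with their fold changes in these 6 libraries known, and Zim1 passed the filter only through its KO libraries. Nothing is read from these ranks.

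**Figure D5:**
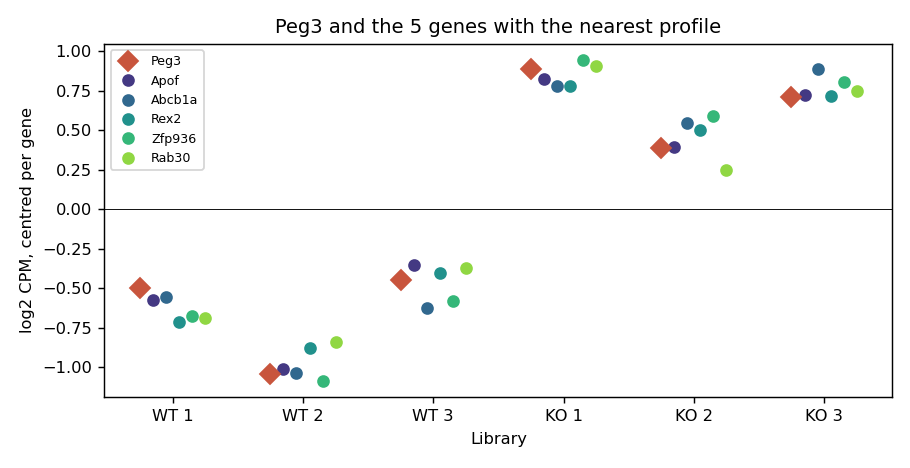
Centred log2 CPM (y axis) of Peg3 (diamonds) and the 5 genes with the nearest profile (circles) in each of the 6 libraries (x axis, points shifted sideways for display). WT replicate 2 is the lowest WT library and KO replicate 2 the lowest KO library for Peg3 and for each of the 5 genes.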

How the data were processed

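Total RNA of 3 WT and 3 KO EpiLC samples was depleted of ribosomal RNA and sequenced as stranded libraries. Fastp trimming and two-pass STAR alignment on GRCm39 were run by the authors, who deposited raw counts per gene. Versions, annotation release and strand setting are not given in the sources used here. Of 55416 identifiers, 54749 were matched to GENCODE M39. Genes were tested in R 4.3.3 with edgeR 4.0.16 (TMM, filterByExpr with a minimum count of 10, quasi-likelihood test, genotype as the only term, Benjamini-Hochberg adjustment over the 15746 genes tested, threshold 0.1). Every adjusted p given is from edgeR unless DESeq2 1.42.0 is named. Standard errors come from the F statistic. The biological coefficient of variation was 11.7%. The code was tested on simulated counts.

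The series text calls the replicates paired. Deviations of 14793 genes from their group means correlated at 0.212, 0.252 and 0.102 between libraries with the same number and from −0.195 to −0.0233 between others, so a replicate block was tried. Libraries of a group were not copies (chi-square per degree of freedom 6.94 to 11.8). Other alternatives were RLE size factors, library totals alone, other filters, a threshold of 0.05 and each library left out. The members and lists were chosen with earlier results of these data known. Genes named are the members, Zim2 and Zim3, the nearest and the called neighbours, fixed genes and up to 4 called genes per list, all PEG3 partners, and the 5 profiles nearest to Peg3 (log2 CPM, prior count 2). Peg10, Nnat, Meg3, Mirg and Ppp1r9a were added afterwards to show where called imprinted genes lie. Promoters are RefSeq's on GRCm38.p6, matched by sequence to GRCm39, and other sequences were read from GRCm39.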

Additional observations from a re-analysis of the deposited data

How the results depend on the processing

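Under the 13 alternatives, or 12 for Zim1, the log2 fold changes of the 4 genes kept their direction, from 1.15 to 1.44 for Peg3, from 0.99 to 1.16 for Usp29, from 1.32 to 2.02 for Zim1 and from 0.15 to 0.35 for Zfp264. With each library left out in turn Zim1 covered the same range, and it was no longer called without KO replicate 3, at 1.32. Zim1 had no value with at least 10 counts required in every library. The replicate block changed no call among the 4 genes, with 1.33 for Peg3, and gave 4764 genes called in all. The imprint maintenance list had 6 genes called, 3 without a filter on low counts, 3 at an adjusted p below 0.05, 11 with the replicate block, and from 3 to 7 with a library left out. The PEG3 partner list had 0 called, 1 with the replicate block and from 0 to 1 with a library left out, and the other paternally expressed genes 10, with 6 at an adjusted p below 0.05. The causes of these changes were not tested. Depth limits the precision of Zim1, with 4 to 27 counts per library.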
